A study of Mus musculus with 6 samples.

Results

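Complement components and receptors were examined in subcutaneous mouse tumors as 9 listed genes: *C1qa*, *C1qb*, *C1qc*, *C3*, *C4b*, *Cfb*, *Cfp*, *C3ar1* and *C5ar1*. Their rows were taken by gene identifier from a table of 54309 identifiers, and all 9 had reads in every tumor and passed the minimum level for testing, as did 13963 genes in all. The tumors grew from MCA205, a transplantable fibrosarcoma cell line of C57BL/6 mice, in female C57BL/6J mice 7 weeks of age that received tumor cells under the skin of the right flank on day 0. Mice in the control group drank MilliQ water and mice in the FF-10101 group drank water with FF-10101 at 0.1 mg/mL from day 1, and whole tumors were collected on day 8, 3 per group. FF-10101 is a kinase inhibitor developed against FLT3 that the study used against CSF1R, the receptor through which macrophages receive their main survival signal, and the comparison addresses how the tumor's gene expression differs with the drug. No gene was altered in either group, and no tumor cells or macrophages were separated before RNA extraction.

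Complement is a cascade of blood and tissue proteins that tags targets and recruits leukocytes. The classical pathway opens with C1q, built from the products of *C1qa*, *C1qb* and *C1qc*; C1q activates the proteases C1r and C1s, which cleave C4 and C2 to form an enzyme that splits C3. The alternative pathway amplifies C3 cleavage with factor B (*Cfb*) and is stabilized by properdin (*Cfp*), and the released peptides C3a and C5a act on the receptors C3aR and C5aR1. Liver makes most of the circulating proteins, whereas in tumors macrophages are a well-known source of C1q, myeloid cells make properdin and carry both receptors, and fibroblasts, endothelial cells and macrophages can make C3 and factor B.

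Total reads assigned to genes were 9143806 to 9643535 in the control tumors and 9277019 to 13258258 in the FF-10101 tumors, so that the least abundant member rested on at least 289 normalized counts in any tumor. Normalized counts are reads after scaling for the depth of each tumor. Fibroblast markers (*Col1a1*, *Col3a1*, *Dcn* and 8 others) summed to 85759 to 249955 normalized counts in control tumors and 203851 to 312655 in FF-10101 tumors, which fits the label of a fibrosarcoma with its stroma. Of 6 hepatocyte markers, 5 had no reads in any tumor and their sum did not exceed 3.82. Control tumor 1 stood apart from the other control tumors in many genes, and results that turn on it are given with and without it.

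The promoters of 6 of the 9 members were found in the RefSeq table for GRCm38.p6, as windows of 300 bases from 250 before to 50 after the start. There was no entry for *C1qa*, *C4b* or *Cfb*. A total of 4 are shown, from the genes with the lowest unadjusted p by limma among those 6. *C1qb* and *C1qc* lie side by side on chromosome 4. *Cfp* lies on the X chromosome, and *C3*, whose level went the other way, on chromosome 17. Capitals mark GAGGAA or its reverse complement TTCCTC, the core bound by the myeloid factor PU.1; each sequence is printed 5′ to 3′ along the gene, and all 4 lie on the minus strand.
*C1qb*, chr4:136886151-136886450: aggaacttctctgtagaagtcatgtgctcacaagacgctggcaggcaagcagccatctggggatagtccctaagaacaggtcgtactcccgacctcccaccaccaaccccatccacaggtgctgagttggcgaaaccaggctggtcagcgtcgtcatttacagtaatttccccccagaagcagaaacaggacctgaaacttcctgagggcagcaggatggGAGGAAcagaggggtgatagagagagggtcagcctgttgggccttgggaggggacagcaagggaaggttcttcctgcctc
*C1qc*, chr4:136892865-136893164: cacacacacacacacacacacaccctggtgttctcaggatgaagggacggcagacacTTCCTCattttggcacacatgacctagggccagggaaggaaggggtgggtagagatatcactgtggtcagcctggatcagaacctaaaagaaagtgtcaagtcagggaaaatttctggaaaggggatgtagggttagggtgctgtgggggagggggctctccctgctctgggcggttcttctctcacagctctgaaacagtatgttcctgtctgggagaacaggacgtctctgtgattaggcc
*Cfp*, chrX:20931506-20931805: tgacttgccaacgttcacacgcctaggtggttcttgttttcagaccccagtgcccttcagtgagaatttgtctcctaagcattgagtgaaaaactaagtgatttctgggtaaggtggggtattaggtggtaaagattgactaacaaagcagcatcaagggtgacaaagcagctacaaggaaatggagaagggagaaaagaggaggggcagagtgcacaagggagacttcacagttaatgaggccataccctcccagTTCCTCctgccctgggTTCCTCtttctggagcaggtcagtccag
*C3*, chr17:57228087-57228386: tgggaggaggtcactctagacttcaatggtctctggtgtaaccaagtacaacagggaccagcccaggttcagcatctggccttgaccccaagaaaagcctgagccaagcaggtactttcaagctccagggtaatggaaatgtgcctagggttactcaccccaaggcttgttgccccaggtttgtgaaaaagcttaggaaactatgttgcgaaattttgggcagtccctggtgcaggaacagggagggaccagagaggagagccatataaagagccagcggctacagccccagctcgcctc

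The PU.1 core was present at -30 from the start in *C1qb*, at -193 in *C1qc* and at 7 and 23 in *Cfp*. These letters were not in the windows of *C3*, *C3ar1* or *C5ar1*, and *C1qa*, *C4b* and *Cfb* had no window to search. Across 32851 promoters of the same length, 28.3% held the PU.1 core on either strand. The interferon-stimulated response element core GAAANNGAA was found in *C5ar1*, at -66 on the opposite strand, and in 8.56% of all promoters. The interferon-gamma activated site TTCNNNGAA (8.3% of all promoters), the kappaB core GGGANNTTC (3.94%) and the MAF core TGCTGAC (4.67%) were searched on both strands in the same 6 windows, with no match. A match is a string of letters and does not show that a factor binds there.

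Of the 9 members, 4 were lower in every FF-10101 tumor than in every control tumor, the 3 C1q genes and *Cfp*, while *C3* and *Cfb* were higher on average with overlapping groups. *C4b*, *C3ar1* and *C5ar1* overlapped between the groups. None of the 9 passed an adjusted p of 0.05 with limma over all genes tested, where 6 genes passed, or 0.043%. At an unadjusted p of 0.05, 2 of the 9 were higher (*C3* and *Cfb*) and 4 lower, beside 8.77% and 7.49% of all genes tested, and limma-voom on the reads also placed 6 of the 9 under 0.05 and none past the adjusted threshold. Groups did not overlap for 0 members in the higher direction and 4 in the lower, beside 10.9% and 9.37% of all genes. The median log2 fold change of the 9 was -0.50, compared with 0.02 over all genes tested. Because bulk RNA was sequenced, fewer cells of a type and less RNA per cell cannot be told apart in any of these values.

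**Figure D1:**
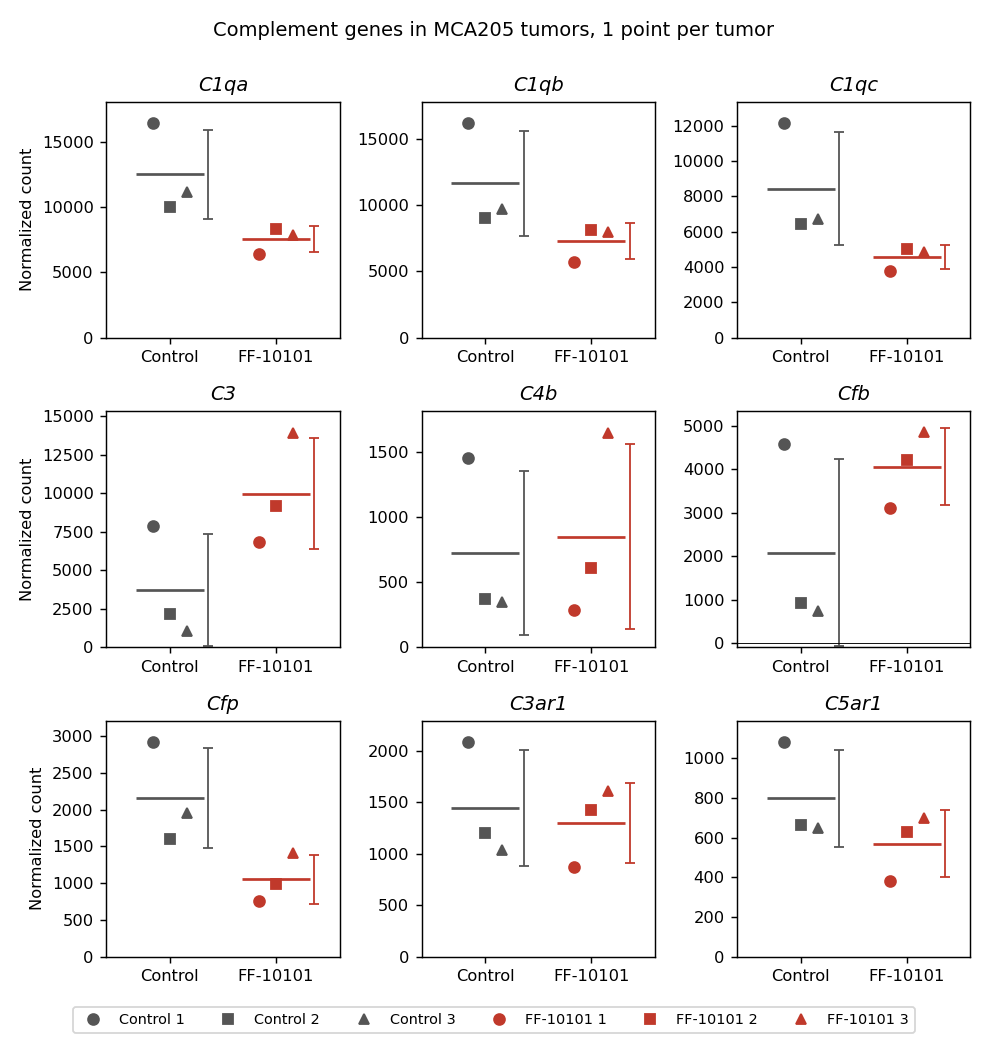
Normalized counts of the 9 complement genes in each tumor, with the group on the horizontal axis, the normalized count on a linear vertical axis that differs between panels, horizontal lines at the group mean and bars of 1 SD (n = 3). Every FF-10101 tumor lies below every control tumor for *C1qa*, *C1qb*, *C1qc* and *Cfp*, whereas for *C3* and *Cfb* control tumor 1 lies among the FF-10101 tumors and control tumors 2 and 3 lie far below.

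*C1qa*, which encodes the A chain of C1q, had 16402, 10032 and 11116 normalized counts in control tumors 1, 2 and 3 and 6437, 8335 and 7886 in FF-10101 tumors 1, 2 and 3. All FF-10101 tumors were below all control tumors, and control tumor 1 was the highest of the 6. The means were 12520 ± 3408 (SD, n = 3) and 7553 ± 992.3, and the log2 fold change was -0.70 with a 95% confidence interval from -1.23 to -0.18, or 1.63-fold lower, with a limma adjusted p of 0.24.

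*C1qb*, the B chain, had 16188, 9004 and 9748 normalized counts in the control tumors and 5699.7, 8118 and 8008 in the FF-10101 tumors. The groups were close but did not overlap, with control tumor 2 just above FF-10101 tumors 2 and 3. The log2 fold change was -0.65 (interval -1.26 to -0.03; limma adjusted p = 0.29), and it was -0.38 without control tumor 1.

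*C1qc*, the C chain, had 12142.5, 6465 and 6729 normalized counts in the control tumors and 3787, 5044 and 4827 in the FF-10101 tumors. It differed most among the 3 chains, 1.79-fold lower with FF-10101, and again the groups were apart. On the log2 scale this was -0.84 (interval -1.46 to -0.22; limma adjusted p = 0.24). Without control tumor 1 the difference was smaller, -0.55, yet passed with an adjusted p of 0.042, in a fit in which 3051 of the 13963 genes passed (21.9%). For each of the 3 chains the exact permutation test, two-sided, gave p = 0.1, the smallest value that 3 tumors against 3 allow.

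The 3 chains are assembled in equal numbers into C1q, and their counts kept a narrow proportion to each other within a tumor. Count ratios between genes are not corrected for length, so only their differences between tumors are read. The ratio of *C1qb* to *C1qa* was 0.987, 0.898 and 0.877 in the control tumors and 0.886, 0.974 and 1.02 in the FF-10101 tumors. The ratio of *C1qc* to *C1qa* was 0.740, 0.644 and 0.605 in the control tumors and 0.588, 0.605 and 0.612 in the FF-10101 tumors. Both ratios overlapped between the groups. Over the 6 tumors, which share their libraries across genes, Pearson's r of the log2 levels was 0.983 for *C1qa* and *C1qb*, 0.995 for *C1qa* and *C1qc* and 0.987 for *C1qb* and *C1qc*.

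Macrophage markers were read beside the C1q genes. Of 10 macrophage markers, 3 were lower in every FF-10101 tumor (*Adgre1*, *Lyz2* and *Maf*), none was higher in every FF-10101 tumor, beside 9.37% and 10.9% of all genes, and none passed the adjusted threshold. Their summed level was 45514 to 66613 normalized counts in control tumors and 22774 to 38842 in FF-10101 tumors, most of it from the lysozyme gene *Lyz2*, and the median log2 fold change of the 10 genes was -0.23. *Csf1r*, the receptor the drug is directed at, had 8961, 4388 and 3568 normalized counts in the control tumors and 3295, 5006 and 5024 in the FF-10101 tumors, which overlapped. Measured against the mean of the macrophage list in the same tumor, the mean log2 level of the C1q genes was higher by 2.62, 2.47 and 2.85 in the control tumors and by 2.50, 2.40 and 1.97 in the FF-10101 tumors, which overlapped. The part of macrophage number in the lower C1q level was not tested.

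Properdin had the lowest fold change of the 9. *Cfp* had 2918, 1604 and 1957 normalized counts in the control tumors and 753, 981 and 1413 in the FF-10101 tumors, and the groups did not overlap. The means were 2159 ± 679.9 (SD, n = 3) and 1049 ± 335.3, and the log2 fold change was -1.04 (interval -1.71 to -0.38), or 2.06-fold lower, with a limma adjusted p of 0.23 and an exact two-sided permutation p of 0.1. Without control tumor 1 it was -0.80, with an adjusted p of 0.053. Across the 6 tumors *Cfp* followed the C1q genes, with r of 0.937 to 0.947, and *C5ar1*, with r of 0.895.

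*C3*, the central protein on which the pathways converge, had 7868, 2171 and 1056 normalized counts in the control tumors and 6812, 9168 and 13924 in the FF-10101 tumors. Control tumor 1 lay between FF-10101 tumors 1 and 2, whereas control tumors 2 and 3 were far below all FF-10101 tumors. The means were 3699 ± 3654 (SD, n = 3) and 9968 ± 3623, the log2 fold change was 1.86 (interval 0.35 to 3.37; 3.64-fold), the limma adjusted p was 0.25 and the exact two-sided permutation p was 0.2. Without control tumor 1 the log2 fold change was 2.66 and passed (limma adjusted p = 0.00338), in a fit in which 21.9% of all genes passed. Without control tumor 3 it was 1.21 (limma adjusted p = 0.63).

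*Cfb*, the protease of the alternative pathway, showed the same arrangement. It had 4570.2, 927 and 747 normalized counts in the control tumors and 3106, 4210.0 and 4847 in the FF-10101 tumors, so that control tumor 1 again lay within the FF-10101 range. On the log2 scale the difference was 1.44 (interval 0.02 to 2.86; 2.71-fold), with a limma adjusted p of 0.30 and an exact two-sided permutation p of 0.3. It was 2.26 without control tumor 1, which passed (limma adjusted p = 0.000706), in a fit in which 21.9% of all genes passed. It was 0.95 without control tumor 3 (limma adjusted p = 0.71). Of the words of 31 bases in *Cfb* transcripts, 75.5% also occur in other gene models, most in Gm20547, an overlapping model of the same region, which had 0 reads in all 6 tumors.

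*C3* and *Cfb* varied together across the tumors (r = 0.975, n = 6), and neither followed *C1qa* (r of -0.27 and -0.14). The count ratio of *Cfb* to *C3* was 0.581, 0.427 and 0.707 in the control tumors and 0.456, 0.459 and 0.348 in the FF-10101 tumors, which overlapped. Of the marker lists, those for interferon-gamma response, endothelial cells, fibroblasts, neutrophils and monocytes were also lowest in control tumors 2 and 3 by their mean log2 level. The summed interferon-gamma response list of 20 genes was 112729 in its highest control tumor and 29156 in its lowest, against 120560 to 143991 with FF-10101, and the summed endothelial list was 1555 to 5820 against 5600 to 6215. All 20 interferon-gamma response genes and all 7 endothelial genes had positive log2 fold changes, none past the adjusted threshold, with medians of 1.28 and 1.14. So had all 11 fibroblast genes, with a median of 0.71 and 5 of them higher in every FF-10101 tumor, beside 10.9% of all genes. Of 7 neutrophil genes tested, 6 were positive with a median of 1.61, and of 8 monocyte genes 6 were positive with a median of 0.75. The part of these lists in the level of *C3* and *Cfb* was not tested.

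*C4b*, which encodes the C4 protein cleaved in the classical pathway, had 1452, 372 and 351 normalized counts in the control tumors and 289, 610.1 and 1651 in the FF-10101 tumors. The highest and the lowest tumor were both in the FF-10101 group. The log2 fold change of 0.21 had an interval from -1.44 to 1.86 (limma adjusted p = 0.90; exact two-sided permutation p = 0.7), and its sign changed to -0.10 without control tumor 2, to -0.15 without control tumor 3 and to -0.45 without FF-10101 tumor 3, while it was 0.88 without control tumor 1. *C4b* shares 48.3% of its words of 31 bases with other gene models, most with its copy *C4a*, to which 0 to 10 reads per tumor were assigned, so the split between both genes is uncertain. At most 3.07% of the reads of the pair were assigned to *C4a* in any tumor.

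*C3ar1*, which encodes the receptor for C3a, had 2085, 1203 and 1033 normalized counts in the control tumors and 866, 1422 and 1612 in the FF-10101 tumors, which overlapped widely. With limma it differed by -0.13 on the log2 scale (interval -0.86 to 0.61; limma adjusted p = 0.86; exact two-sided permutation p = 0.8), and it turned to 0.17 without control tumor 1, to 0.14 without FF-10101 tumor 1 and to 0.23 with array weights.

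*C5ar1*, which encodes the main receptor for C5a, had 1082, 665 and 650.02 normalized counts in the control tumors and 379, 629 and 699.5 in the FF-10101 tumors. FF-10101 tumor 1 was lowest and control tumor 1 highest, with the other 4 between 629 and 699.5. The log2 fold change was -0.50 (interval -1.16 to 0.17; limma adjusted p = 0.42; exact two-sided permutation p = 0.4), and it was -0.26 when control tumor 1 was left out and -0.23 when FF-10101 tumor 1 was.

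The proportion between the receptor genes was steadier than either level. The ratio of *C3ar1* to *C5ar1* counts was 1.93, 1.81 and 1.59 in the control tumors and 2.29, 2.26 and 2.30 in the FF-10101 tumors. Every FF-10101 tumor was above every control tumor, with log2 means of 0.82 ± 0.142 (SD, n = 3) and 1.19 ± 0.0131, a difference of 0.37. The ratio is 1 of the 5 computed, it was not tested, and control tumor 1, which stood apart in the levels, lay with the other control tumors here.

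**Figure D2:**
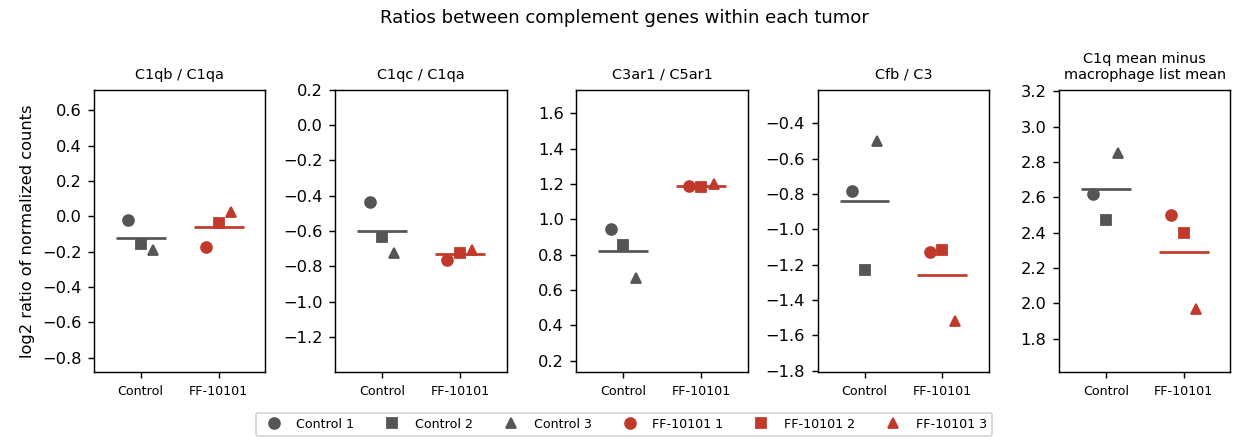
Log2 ratios of normalized counts within each tumor for 4 gene pairs, and the mean log2 level of the C1q genes minus that of the macrophage list, with points for tumors, lines at group means and panels of equal height in log2 units. *C3ar1* to *C5ar1* is the ratio whose groups stand apart, at 1.59 to 1.93 in control tumors and 2.26 to 2.30 in FF-10101 tumors on the linear scale.

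To order the members by level, levels were taken per length, as normalized counts per kilobase of transcript, scaled to the same total in each tumor. On this scale the C1q genes led in both groups, with control means of 2141 for *C1qa*, 1904 for *C1qb* and 1249 for *C1qc* and FF-10101 means of 1414, 1302 and 737. In control tumors *C1qa* and *C1qb* overlapped, as did *C1qb* and *C1qc*, and *C1qc* stood clear of *Cfp*. The order after C1q in control tumors was *Cfp* at 234, *Cfb* at 134, *C3* at 128, *C3ar1* at 59.7, *C5ar1* at 56.0 and *C4b* at 23.9, and each overlapped with the next. In FF-10101 tumors *C3* at 378 and *Cfb* at 287 came after C1q, which stood clear of them, and overlapped with each other, both clear of *Cfp* at 125. *Cfp* was in turn clear of *C3ar1* at 58.8, and *C3ar1*, *C5ar1* at 43.7 and *C4b* at 30.8 overlapped with their neighbors. *C3* per length ranged from 35.1 to 269 in control tumors, where *Cfp* ranged from 186 to 313, and from 256 to 528 in FF-10101 tumors, where *Cfp* ranged from 88.9 to 168.

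Of 52 other complement genes listed by role, 45 had a read and 24 reached the minimum level. Among the 24, 14 had positive and 10 negative log2 fold changes, with a median of 0.21. None passed the adjusted threshold with limma or limma-voom, 5 were higher and 2 lower at an unadjusted p of 0.05 (8.77% and 7.49% of all genes tested), and 2 were higher and 3 lower without overlap between groups (10.9% and 9.37% of all genes).

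Of 6 genes tested that open the cascade beside C1q, 4 had positive and 2 negative log2 fold changes. *C1s1*, the protease that C1q activates, had 2151, 1104 and 837 normalized counts in the control tumors and 2362, 3156 and 3942 in the FF-10101 tumors, without overlap (log2 fold change 1.29; limma adjusted p = 0.23). Its partner *C1ra* had a log2 fold change of 1.20 with overlap, *C2* of 0.40 and *Masp1*, a protease of the lectin pathway, of -0.05. *Masp1* was at -0.17 without control tumor 1. With array weights it was at -0.47 and passed (limma adjusted p = 0.00722), in a fit in which 59.9% of all genes passed. *C1s1* shares 33.5% and *C1ra* 59.3% of their words with other gene models, most with the copies *C1s2* and *C1rb*, to which at most 5 and 1 reads per tumor were assigned. *Colec12*, a scavenger receptor with a collectin domain, was higher in every FF-10101 tumor (log2 fold change 0.54; limma adjusted p = 0.23).

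*Fcna*, which encodes ficolin A, a recognition molecule of the lectin pathway made by macrophages, had the lowest fold change of all 24. It had 142, 152 and 169 normalized counts in the control tumors and 17.6, 21.7 and 56.9 in the FF-10101 tumors. The groups were far apart at 5.34-fold lower (log2 fold change -2.42, interval -3.40 to -1.43; limma adjusted p = 0.19). Control tumor 1 lay with the other control tumors for this gene. The value without that tumor was -2.47 (limma adjusted p = 0.0106), in a fit in which 21.9% of all genes passed.

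Of 8 regulators tested, 7 had positive log2 fold changes, beside 7252 of all 13963 genes. Of these, 2 were at an unadjusted p under 0.05 (*Serping1* and *Vtn*), beside 8.77% of all genes tested. All 8 overlapped between the groups. *Serping1*, the inhibitor of C1r and C1s, had 1714, 287 and 304 normalized counts in the control tumors and 1052, 2173 and 3566 in the FF-10101 tumors (log2 fold change 1.92; limma adjusted p = 0.27), in which control tumor 1 lay within the FF-10101 range as for *C3*. *Vtn*, which encodes vitronectin, was at 15.8, 0 and 1.11 normalized counts in the control tumors and 13.7, 26.1 and 24.0 in the FF-10101 tumors, few reads for a log2 fold change of 2.71. *Clu*, which encodes clusterin, was the negative one at -0.24.

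Among receptors, *Itgam*, the alpha chain of complement receptor 3, had 2488, 1846 and 1566 normalized counts in the control tumors and 915, 1181 and 1449.7 in the FF-10101 tumors, without overlap (log2 fold change -0.73; limma adjusted p = 0.24). *Itgam* shares 68.1% of its words, most with Gm49368, which had 2 to 22 reads per tumor against 1088 to 2210 for *Itgam*. *C5ar2*, the other C5a receptor and the gene next to *C5ar1* on chromosome 7, was lower without overlap (log2 fold change -0.65; limma adjusted p = 0.37), while *Itgax*, the alpha chain of complement receptor 4, and the shared beta chain *Itgb2* had 0.53 and 0.25 with overlap. Without control tumor 1 these were 1.19 and 0.84 (limma adjusted p = 0.00973 and 0.0289), in a fit in which 21.9% of all genes passed.

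Of the terminal components that build the membrane attack complex, *C6* alone reached the level for testing. *C9* and *C8b* had no reads in any tumor, which allows up to 3 reads or 2.29 to 3.38 normalized counts per tumor, counting error only. *C7* and *C8a* had at most 2 reads, *C8g* at most 11, and *C6* had between 15 and 59, with a log2 fold change of -0.47 and overlapping groups. The fold change of *C6* was -0.04 without control tumor 1 and 0.08 with array weights. *Hc*, which encodes C5, the source of the ligand of *C5ar1*, had 6, 4 and 4 reads in the control tumors and 11, 19 and 14 in the FF-10101 tumors, below the level for testing. *Cfd*, factor D of the alternative pathway and a product of fat cells, was at 42.8 to 337 normalized counts across the 6 tumors with a log2 fold change of -0.12. The latter was -0.28 without control tumor 1 and turned to 0.44 with array weights.

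**Figure D3:**
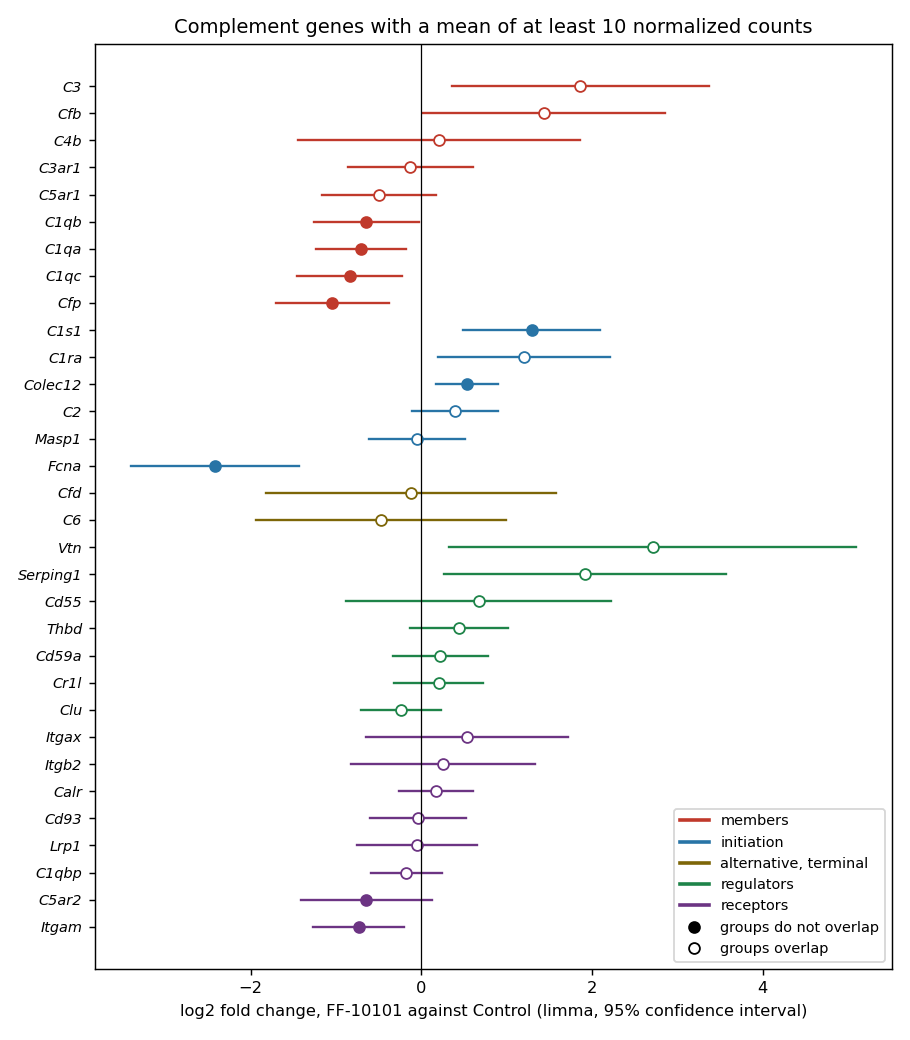
Log2 fold changes of FF-10101 against control tumors with 95% confidence intervals from limma, for the 9 members and 23 of the 24 other complement genes that reached the minimum level, colored by role, with filled points where the groups do not overlap. The C1q genes, *Cfp*, *Fcna*, *Itgam* and *C5ar2* are filled on the lower side and *C1s1* and *Colec12* on the higher side, and none passed an adjusted p of 0.05.

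How much a single tumor decided was examined by leaving each out in turn. Without control tumor 1, 3 members passed (*C3*, *Cfb* and *C1qc*), as did 8 of the 24 wider genes, 7 of them higher (*C1ra*, *C1s1*, *Serping1*, *Itgax*, *Vtn*, *Itgb2* and *Colec12*) and *Fcna* lower, in a fit in which 21.9% of all genes passed. The log2 fold changes in that fit were 1.74 for *C1ra*, 1.68 for *C1s1*, 2.76 for *Serping1* and 3.89 for *Vtn* (limma adjusted p = 0.00303, 0.00338, 0.00507 and 0.00947). In each of the 5 fits that left out another tumor, 0 members and 0 wider genes passed, and 1 to 5 of all 13963 genes did. At an unadjusted p under 0.05 these fits held 2 to 4 members, beside 7.6% to 17.1% of all genes. Limma's array weights were 0.139, 5.39 and 0.475 for control tumors 1, 2 and 3 and 0.406, 8.08 and 0.859 for FF-10101 tumors 1, 2 and 3, so that this fit rested mainly on control tumor 2 and FF-10101 tumor 2. With these weights 6 members passed (*C3*, *Cfb* and *C4b* higher, *C1qa*, *C1qc* and *Cfp* lower), in a fit in which 59.9% of all genes passed. The log2 fold changes of the lower members were closer to 0 there, at -0.32 for *C1qa*, -0.20 for *C1qb*, -0.41 for *C1qc*, -0.72 for *Cfp* and -0.11 for *C5ar1*, and those of *C3*, *Cfb* and *C4b* were 2.15, 2.15 and 0.76. The signs of the C1q genes, *Cfp*, *C3*, *Cfb* and *C5ar1* were the same in each of the 6 fits without a tumor.

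**Figure D4:**
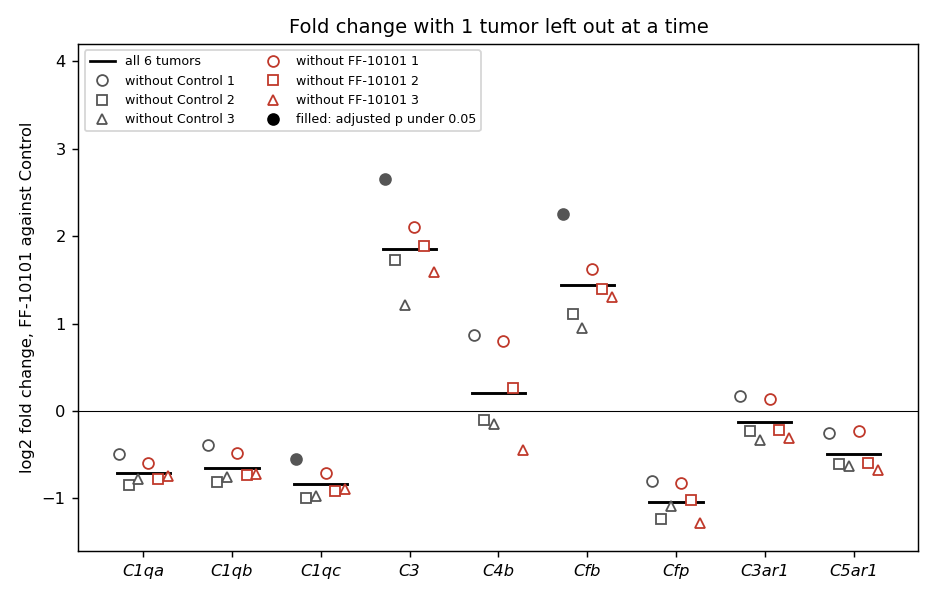
Log2 fold change of each member with all 6 tumors (black lines) and with 1 tumor left out (points, gray for a control and red for an FF-10101 tumor), filled where the adjusted p from limma was under 0.05. The filled points are *C1qc* at -0.55, *C3* at 2.66 and *Cfb* at 2.26, all without control tumor 1, and *C4b* and *C3ar1* cross zero.

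Across tumors the members fell into 2 patterns, described here with r over 6 tumors. The C1q genes, *Cfp* and *C5ar1* went together, with r from 0.884 to 0.995, all highest in control tumor 1 and lowest in FF-10101 tumor 1. *C3* and *Cfb* were high in control tumor 1 and in all FF-10101 tumors. *C4b* and *C3ar1* lay between the patterns, correlated with each other at 0.914 and with *C5ar1* at 0.718 and 0.890.

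**Figure D5:**
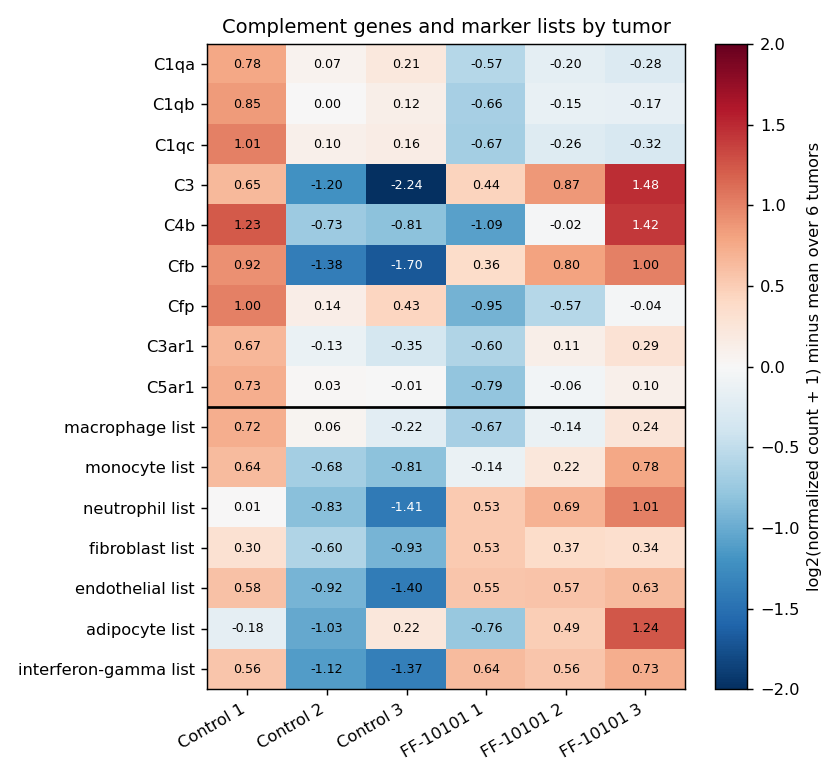
Log2(normalized count + 1) of each member, and the mean over the genes of each marker list, minus its own mean over the 6 tumors, with tumors in columns and color from -2 (blue) to 2 (red). The C1q genes are highest in control tumor 1, at 0.775 to 1.01, and lowest in FF-10101 tumor 1, at -0.674 to -0.574. *C3*, *Cfb* and the endothelial and interferon-gamma lists are lowest in control tumors 2 and 3.

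Genes outside the complement lists with the most similar pattern were taken from 9987 protein-coding genes whose normalized counts averaged 100 or more, and with 6 tumors such a pool holds many high values of r. For the C1q mean they were *Rnaset2a* and *Abhd12* (r = 0.998 each) and *Cyth4* (0.991), and for *Cfp* they were *Vamp3* (0.994), *Dgkz* and *Cdc42* (0.987 each). For *C3* they were *Itgb3* (0.999), *Plekhg1* and *N4bp1* (0.998 each), and for *Cfb* they were *Capn5*, *Klrb1b* and *Tor3a* (0.998 each). *C4b* was most like *Sgms1* (0.999), *Tnxb* (0.989) and *Tmem71* (0.984), of which *Tnxb* is its direct neighbor on chromosome 17. *C3ar1* was like *Znrf2* and *Sptlc2* (0.996 and 0.989), and *C5ar1* most like *Rnf130* (0.996), *Evi2a* and *Snx5* (0.990 each).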

How the data were processed

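Bulk RNA of 6 MCA205 tumors (3 Control, 3 FF-10101, grouped by their labels and described by the submitters as biological replicates) was analysed. The authors trimmed reads with fastp version 0.19.5, quantified them with Salmon version 1.5.1 on GENCODE vM27 (GRCm39) and used DESeq2 version 1.22.1. The deposited table holds log2 values in the form of its variance-stabilizing transformation, which the sources used here do not name; its inverse gave whole reads for 100% of 325854 values (tolerance 1e-06 reads), from which normalized counts were made. Salmon divides reads among similar transcripts by estimation.

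The planned limma test (version 3.58.1, R version 4.3.3; trend, group as sole term) was run on log2(normalized count + 1) for the 13963 genes averaging 10 or more, and p was adjusted by Benjamini-Hochberg; low genes' fold changes are understated on this scale. Names and lengths came from GENCODE vM21, which matched 51484 identifiers, and promoters and gene order from RefSeq GRCm38.p6. All 9 members were described, then wider complement genes with a mean of at least 10 starting with those whose groups do not overlap, then for each member, with C1q as the mean of its 3 genes, the 3 most correlated genes, and marker genes where needed. Wider genes below that mean are given in reads, and the values of some named genes are not reported here. Alternatives were other pseudocounts, minimums, scalings, no trend, array weights, a replicate block, each tumor left out, the deposited log2 values and limma-voom. Members and lists were chosen with earlier results of these data known.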

Additional observations from a re-analysis of the deposited data

How the results depend on the processing

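The number of genes past an adjusted p of 0.05 by limma was 6, and 17 with no minimum count, 3 with a mean of at least 50, 1 with the replicate number as a block, 8365 with array weights and 1 to 3051 with 1 tumor left out at a time. Members past it numbered 0, but 6 with array weights and 0 to 3 with 1 tumor left out, and wider complement genes 0, but 20 with array weights and 0 to 8 with 1 tumor left out; the cause was not tested. The log2 fold change of *C3ar1* was 0.226 with array weights and -0.333 to 0.173 with 1 tumor left out, and that of *C4b* was -0.449 to 0.876 with 1 tumor left out. Of the other values of the members' fold changes, 138 kept their sign and side of the threshold and 9 kept their sign and passed it. Deviations of same-numbered tumors from their group means had r of -0.288, -0.0397 and -0.277. From 3 tumors per group these values cannot decide whether the numbers pair the tumors. In the limma fit with the replicate block the members' adjusted p was 0.501 to 0.931. With 3 tumors per group, single-tumor levels set the spread, and reads of *C4b* and *Cfb* that match other gene models were divided by estimation.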
